A study of Mus musculus with 55 samples.

Results

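The genes described here belong to the p53 pathway, and they were followed in mouse embryonic stem cells that had been arrested in mitosis and then released. They were chosen by name: 10 genes were named, namely Trp53 itself and 9 genes that p53 is known to switch on. A gene was taken where its symbol is listed in both tables of pre-mRNA levels. This held for 8 of the 10 (Trp53, Ccng1, Bax, Bbc3, Phlda3, Sesn2, Trp53inp1 and Aen), out of 9911 genes in the CCNA-GFP table and 10237 genes in the CTCF-AID table. Cdkn1a and Mdm2 were not analysed here.

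Pre-mRNA, the transcript before its introns are removed, was quantified by ribo-depleted, stranded RNA-seq of 55 libraries. CCNA-GFP cells (19 libraries) are E14Tg2a embryonic stem cells that carry a cyclin A-GFP reporter of the cell cycle. CTCF-AID cells (36 libraries) are E14Tg2a cells of 1 clone, #EN52.9.1, in which the CTCF protein can be degraded by the auxin indole-3-acetic acid (IAA). Both lines were grown in serum and LIF. Synchronised cells of both lines received the CDK1 inhibitor RO-3306 (10 µM, 4 h), then the spindle poison nocodazole (50 ng/ml, 4 h), and were collected by shake-off as mitotic cells or released from nocodazole for 20, 30 (CCNA-GFP only), 40, 50, 60, 90 or 120 min. Asynchronous cells of each line received neither drug. Every mitotic and released library thus passed through both drugs, and effects of the arrest and of the drugs cannot be told apart. The +IAA arm received 0.5 mM IAA for the last 2 h of nocodazole and through the release, its asynchronous cells received IAA in parallel for 4 h, and the −IAA arm received none. Mitotic and asynchronous groups hold 3 libraries per arm, and released groups hold 2, except for CCNA-GFP at 50 min, which has 1 library and was not tested.

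The transcription factor p53, encoded by Trp53, is kept at a low level by the ubiquitin ligase Mdm2, and damage to DNA or other stress lets the protein accumulate. It then binds DNA as a tetramer and switches on genes that stop the cell cycle, repair DNA, adjust metabolism or start apoptosis, and some of its targets feed back on p53 itself. Since p53 is controlled mainly through the stability of its protein, the pre-mRNA of its targets and the pre-mRNA of Trp53 report on different steps.

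Promoters are shown for the genes in which the p53 decamer was found, the degenerate motif of which p53 binds a pair. RefSeq promoter entries of the GRCm38.p6 build (250 bases before to 50 bases after a start site) matched 7 of the 8 genes. The decamer, which reads as itself on the opposite strand, was found in the entries of 4 genes (Bax, Aen, Ccng1 and Trp53) and not in the windows of Bbc3, Phlda3 and Sesn2. Counted by gene symbol, 9.55% of all 27025 symbols had a decamer in an entry. Among all 32851 promoter entries, 8.36% held at least 1 decamer, and 0.0731% held a pair no more than 13 bases apart. No entry of the 7 genes held such a pair. In the sequences that follow, read 5′ to 3′ on the strand of the gene, capitals mark the decamer. For Bax, Ccng1 and Trp53 the bases upstream of the annotated gene are given, and for Aen, whose match lies in the first annotated exon, the 30 bases around it.
Bax, chr7:45466899-45467148, minus strand: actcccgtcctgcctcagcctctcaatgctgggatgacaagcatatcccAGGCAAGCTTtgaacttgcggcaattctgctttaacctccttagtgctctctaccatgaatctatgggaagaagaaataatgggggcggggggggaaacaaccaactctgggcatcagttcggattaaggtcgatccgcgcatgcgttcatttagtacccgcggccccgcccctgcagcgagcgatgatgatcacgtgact
Ccng1, chr11:40755312-40755536, minus strand: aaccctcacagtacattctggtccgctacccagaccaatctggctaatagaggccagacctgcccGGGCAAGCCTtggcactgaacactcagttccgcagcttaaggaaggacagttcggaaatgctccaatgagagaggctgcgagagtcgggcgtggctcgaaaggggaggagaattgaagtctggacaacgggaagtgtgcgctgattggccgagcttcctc
Trp53, chr11:69580109-69580358, plus strand: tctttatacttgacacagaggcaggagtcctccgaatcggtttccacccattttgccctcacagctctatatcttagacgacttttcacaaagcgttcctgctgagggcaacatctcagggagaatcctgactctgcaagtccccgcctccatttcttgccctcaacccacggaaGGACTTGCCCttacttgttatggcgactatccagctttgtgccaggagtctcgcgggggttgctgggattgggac
Aen, chr7:78895927-78895956, plus strand: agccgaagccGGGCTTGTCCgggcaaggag
The decamer of Bax began 201 bases, that of Ccng1 185 bases and that of Trp53 75 bases before the start site. A match of letters is a description of the promoter, and binding of p53 was not measured here.

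The genes themselves lie, in GRCm38 with the Gencode vM21 annotation, at chr11:69580359-69591873 (Trp53, plus strand), chr11:40748552-40755311 (Ccng1, minus), chr7:45461697-45466898 (Bax, minus), chr7:16308393-16318205 (Bbc3, plus), chr1:135766119-135769136 (Phlda3, plus), chr4:132492032-132510501 (Sesn2, minus), chr4:11156431-11174379 (Trp53inp1, plus) and chr7:78895854-78911209 (Aen, plus). Bax overlaps the annotated gene Gm45808 and Sesn2 overlaps Gm12981, both on the same strand. Strand does not tell apart reads of the shared stretches, so the levels of Bax and Sesn2 may be less certain than the others. The authors quantified with Gencode vM12, and whether it holds Gm45808 and Gm12981 was not checked.

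Levels are pre-mRNA abundances deposited as TPM. They may hold a library factor that the methods do not name, so they need not be relative to all transcripts of a library. They were tested with limma on log2(TPM + 1), so a log2 fold change understates the change of a low gene. For a rise, low genes thus pull down the median of all genes and raise the percentile of a gene at higher TPM. Among the 4707 CCNA-GFP genes of at least 1 TPM, the median ratio of 60 min to mitotic was 2.25. Values fall on steps, 1 step per library, but these are not reads: between +IAA and −IAA libraries of the same stage and replicate, genes over 50 kb at 20 to 100 steps spread by 0.227 of the variance that read counts must have (median of 18 pairs) and genes under 10 kb by 1.99. The steps therefore do not give the depth, and the counting error of a value is unknown. The summed TPM of the listed genes was 13747 to 17245 in mitotic CCNA-GFP libraries, 20501 to 28934 in asynchronous ones and 30992 to 42576 at 60 min, so most genes move together between stages. The median log2 fold change over all CCNA-GFP genes was 0.79 for 60 min against mitotic, 0.33 for asynchronous against mitotic and 0.35 for 120 min against asynchronous. The genes below were therefore also read after every library was given the same total. Of 8 markers of embryonic stem cells, 7 were listed, and their sum was between 28.1 and 138 TPM in every library. Fibroblast markers (2 of 5 listed, in CTCF-AID only) summed to at most 3.42 TPM, trophoblast markers (2 of 4 listed in CCNA-GFP, 3 of 4 in CTCF-AID) to at most 6.53 TPM, and none of 5 primitive endoderm markers was listed.

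**Figure D1:**
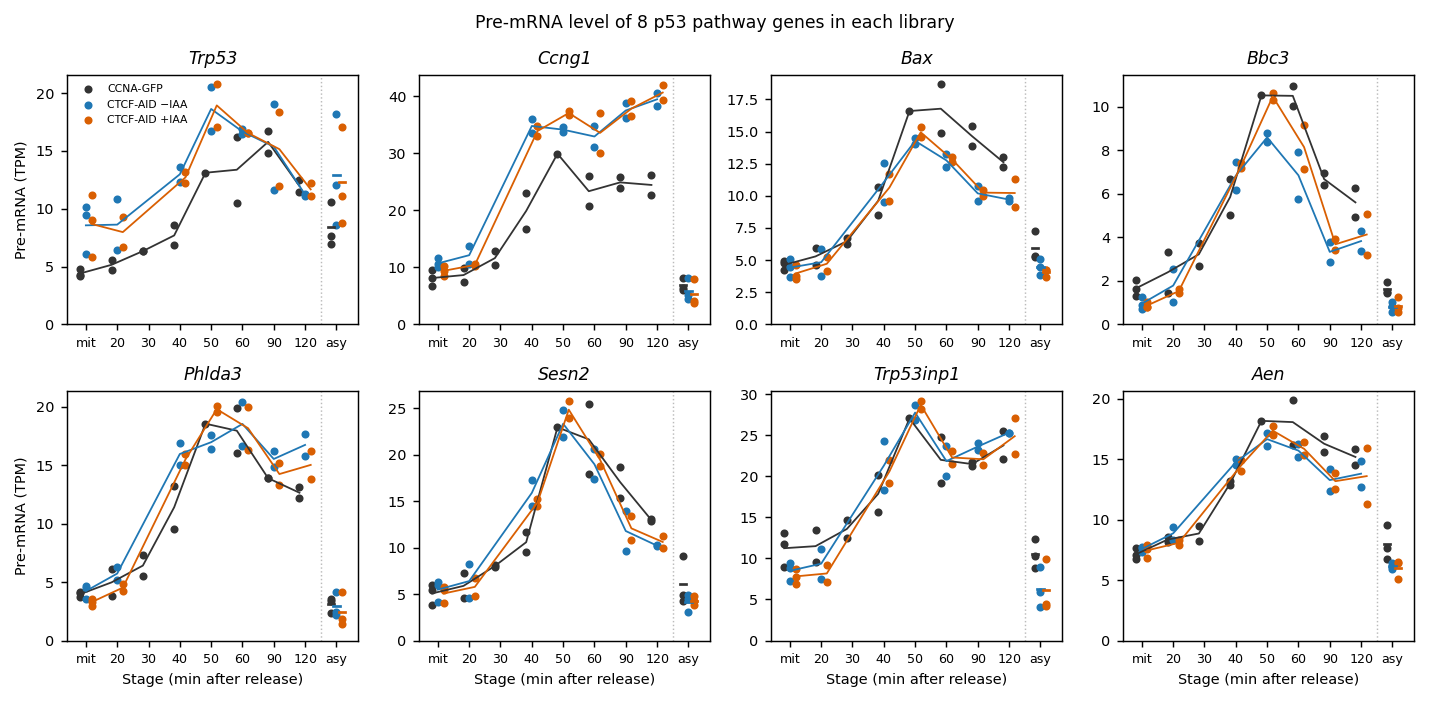
Pre-mRNA level in TPM (vertical axis) of each gene against stage (horizontal axis: mitotic, minutes after release, asynchronous), with 1 point per library. Stages are evenly spaced, lines join the means of mitotic and released groups and short bars mark asynchronous means; from 40 to 120 min every library of each gene but Trp53 is above all asynchronous libraries of its arm.

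Trp53 was followed first. In CCNA-GFP cells its pre-mRNA was at 4.15, 4.28 and 4.78 TPM in the 3 mitotic libraries, 16.2 and 10.5 TPM at 60 min, 12.5 and 11.4 TPM at 120 min, and 6.96, 7.60 and 10.6 TPM in asynchronous cells. Of these libraries the mitotic ones were the lowest, and the 60 min and asynchronous values overlapped (10.5 against 10.6 TPM). Trp53 rose from mitotic to 60 min by 1.47 ± 0.15 (log2 fold change ± SE, limma adjusted p = 1.4e-08), and it was also higher in asynchronous than in mitotic cells, by 0.78 ± 0.13 (limma adjusted p = 5.1e-05). On log2(TPM + 1), its rise to 60 min lay at percentile 89.2 of all genes of the table and exceeded their median by 0.68. By ratio of means the rise was 3.04, where the median ratio of genes of at least 1 TPM was 2.25.

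In CTCF-AID cells without IAA, Trp53 stood at 9.42, 6.13 and 10.1 TPM in mitosis, 16.9 and 16.4 TPM at 60 min, 11.3 and 11.1 TPM at 120 min, and 12, 8.56 and 18.2 TPM in asynchronous cells. The asynchronous libraries spread from below to above both 120 min libraries, and the highest of them, replicate 3, has no 120 min partner. Against asynchronous cells, Trp53 at 120 min was higher in CCNA-GFP (0.57 ± 0.15, limma adjusted p = 0.0023) and was not called in CTCF-AID −IAA (0.07 ± 0.15, limma adjusted p = 0.71) or +IAA (0.18 ± 0.15, limma adjusted p = 0.32). The difference between the lines was not tested, since they are in separate tables that may not share a scale. With the same total per library the CCNA-GFP value was 0.06 and not called, and that of CTCF-AID −IAA was −0.29 and called lower.

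The question of the time course is when each gene returns after mitosis. At 20 min no gene of the pathway was called against mitotic cells in any arm by limma (unadjusted p under 0.05 for 0, 1 and 1 of the 8 in CCNA-GFP, −IAA and +IAA), where 0% of all genes were called higher in each arm. At 40 min all 8 were called higher in CCNA-GFP, against 49.3% of all genes, and all 8 in CTCF-AID, against 63.3% (−IAA) and 58.7% (+IAA). By then the summed TPM in CCNA-GFP was 19838 to 23464, against 13747 to 17245 in mitotic libraries. The 40 min calls are not given under equal totals, so they do not show a return particular to the pathway. At 60 min all 8 were higher in the 3 arms, where 88.3% (CCNA-GFP), 84.8% (−IAA) and 82.2% (+IAA) of all genes were, so at 60 min the count alone does not set the pathway apart. In bulk RNA, fewer cells of a kind and less RNA per cell cannot be told apart.

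Among the genes of apoptosis, Bbc3, which encodes the BH3-only protein Puma, had the largest rise. It was at 2.06, 1.30 and 1.63 TPM in mitotic CCNA-GFP cells, 3.32 and 1.45 TPM at 20 min, 6.68 and 5.02 TPM at 40 min and 11 and 10.0 TPM at 60 min. Every value from 40 min on was above every mitotic value, and the change to 60 min was 2.14 ± 0.18 (limma adjusted p = 1.1e-09), at percentile 99.3 of all genes. In CTCF-AID −IAA it went from 1.24, 0.708 and 0.906 TPM to 5.76 and 7.94 TPM, a change of 1.98 ± 0.20 (limma adjusted p = 2.8e-09).

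Bax, a pore-forming effector of the mitochondrial pathway, was at 4.74, 4.25 and 4.89 TPM in mitotic CCNA-GFP cells and 18.7 and 14.9 TPM at 60 min. The change was 1.72 ± 0.14 (limma adjusted p = 6.3e-10) and the groups did not overlap. Aen, an exonuclease that cuts DNA in apoptosis, was at 6.72, 7.64 and 7.08 TPM in mitosis and 19.9 and 16.2 TPM at 60 min, a change of 1.25 ± 0.14 (limma adjusted p = 6.3e-08). Phlda3, a pleckstrin-homology protein that restrains Akt signalling, went from 4.18, 3.69 and 4.05 TPM to 19.9 and 16 TPM, a change of 1.94 ± 0.17 (limma adjusted p = 1.8e-09). All 3 were above their mitotic values in both 60 min libraries.

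Sesn2 encodes a sestrin, which senses leucine and restrains mTORC1. It was at 5.44, 3.85 and 5.93 TPM in mitotic CCNA-GFP cells and 25.4 and 17.9 TPM at 60 min, a change of 2.05 ± 0.16 (limma adjusted p = 5e-10). Ccng1, which encodes cyclin G1, a target that acts back on p53, was at 9.48, 6.74 and 8.18 TPM in mitosis, 23.1 and 16.7 TPM at 40 min and 26.0 and 20.8 TPM at 60 min, a change to 60 min of 1.45 ± 0.13 (limma adjusted p = 3.7e-09). In CTCF-AID −IAA, Ccng1 went from 11.6, 10.0 and 10.5 TPM to 36.1 and 33.5 TPM at 40 min and stood at 31.1 and 34.9 TPM at 60 min, so the 40 and 60 min libraries overlapped. Trp53inp1, which encodes a nuclear protein that promotes p53 activity, changed least of the 8 in CCNA-GFP, from 13.1, 8.90 and 11.7 TPM to 24.8 and 19.2 TPM (0.92 ± 0.16, limma adjusted p = 2e-05), at percentile 59.1 of all genes on log2(TPM + 1). By ratio of means its change was 1.96, below the median ratio of 2.25 among genes of at least 1 TPM. In CTCF-AID the smallest change on log2(TPM + 1) was that of Aen, with 0.96 ± 0.11 in −IAA and 1.00 ± 0.11 in +IAA. By ratio of means Trp53 changed less (1.95 in −IAA and 1.91 in +IAA) than Aen (2.07 and 2.12).

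By group mean, the levels were highest at different times. In CTCF-AID, 50 min was the highest stage of 6 genes in −IAA and of 7 in +IAA, while Ccng1 was highest at 120 min in both arms and Phlda3 at 60 min in −IAA. The groups of 50 and 90 min hold replicates 1 and 3, and those of 40, 60 and 120 min replicates 1 and 2, so stage means differ in replicates too. In replicate 1 without IAA, Phlda3 was higher at 50 min (17.6 TPM) than at 60 min (16.6 TPM). Bbc3 stood at 7.48 and 6.18 TPM at 40 min, 8.37 and 8.81 TPM at 50 min and 2.87 and 3.79 TPM at 90 min without IAA, so both 90 min libraries were below those of 40 min. Sesn2 had the same shape in −IAA, with 17.3 and 14.5 TPM at 40 min, 21.9 and 24.8 TPM at 50 min and 9.60 and 14 TPM at 90 min.

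Trp53inp1 was at 28.7 and 26.8 TPM at 50 min and at 23.2 and 24.0 TPM at 90 min in −IAA, lower than at 50 min in both libraries. Phlda3 went from 17.6 and 16.4 TPM at 50 min to 14.8 and 16.2 TPM at 90 min. Trp53 was at 16.7 and 20.6 TPM at 50 min and 11.7 and 19.1 TPM at 90 min. It was lower at 90 than at 50 min in both replicates, a difference that was not tested. In the single CCNA-GFP library of 50 min, Ccng1 stood at 30.0 and Trp53inp1 at 27.0 TPM, the highest of their CCNA-GFP values. In that library Sesn2 was at 22.9, Phlda3 at 18.6, Aen at 18.2, Bax at 16.6, Trp53 at 13.1 and Bbc3 at 10.5 TPM. At 30 min, sampled in CCNA-GFP only, Bbc3 was at 3.75 and 2.69 TPM, above its 3 mitotic libraries, and its change was not called (0.59 ± 0.18, limma adjusted p = 0.16).

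After scaling to equal totals, 5 of the 8 genes were still called higher at 60 min against mitotic in each arm, where 36.4% of all genes were in CCNA-GFP, 39.4% in −IAA and 40.7% in +IAA. Bax, Bbc3, Phlda3 and Sesn2 were called in all 3 arms, with Trp53 as the fifth in CCNA-GFP (0.27) and Ccng1 in CTCF-AID (0.55 −IAA, 0.75 +IAA). In CCNA-GFP, Trp53inp1 turned to −0.36 and Aen to −0.0011 under that scaling, and Ccng1 (0.19) was no longer called, so for these 3 genes no rise beyond that of the library total was called. In CTCF-AID, Trp53 (0.20 −IAA, 0.18 +IAA), Aen (0.06 and 0.08) and Trp53inp1 (0.30 and 0.43) were not called under it. Without replicate 1, Trp53inp1 in −IAA was not called at 60 min (1.02).

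The next question is how far mitotic cells differ from cells that were never arrested. In CCNA-GFP, Trp53 and Bax (0.29 ± 0.12, limma adjusted p = 0.032) were higher in asynchronous than in mitotic cells, which is 2 of 8 where 70.4% of all genes were higher. None of the 8 was called lower, against 1.97% of all genes. The other 6 were not called, and 4 of them lay near the low end of all genes: Phlda3 (−0.29 ± 0.15, percentile 1.4), Ccng1 (−0.21 ± 0.12, percentile 2.1), Trp53inp1 (−0.09 ± 0.14, percentile 4.5) and Bbc3 (−0.02 ± 0.15, percentile 7.5). Without replicate 1 these 4 stood at −0.12, −0.070, 0.13 and 0.14. Aen (0.13 ± 0.12) and Sesn2 (0.18 ± 0.14) lay at percentiles 19 and 25.6.

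In CTCF-AID −IAA, Trp53 was again higher in asynchronous cells (0.51 ± 0.13, limma adjusted p = 0.0037), 1 of 8 where 34.3% of all genes were, and Ccng1, Phlda3 and Aen were lower, 3 of 8 where 5.25% were. Ccng1 stood at 5.19, 8.08 and 4.43 TPM in asynchronous and 11.6, 10.0 and 10.5 TPM in mitotic −IAA cells, without overlap (−0.80 ± 0.16, limma adjusted p = 0.00047), and at percentile 0.2 of all genes. Phlda3 (−0.44 ± 0.16, limma adjusted p = 0.030) and Aen (−0.26 ± 0.10, limma adjusted p = 0.033) followed. In +IAA, Trp53 was higher (0.45 ± 0.13, limma adjusted p = 0.0074), 1 of 8 where 40.9% of all genes were, and Ccng1 (−0.79 ± 0.16, limma adjusted p = 0.00039) and Aen (−0.28 ± 0.10, limma adjusted p = 0.021) were lower, 2 of 8 where 5.89% were. Phlda3 missed the threshold there (−0.38 ± 0.16, limma adjusted p = 0.055).

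These calls depend on the scaling and on single replicates. With the same total per library, 7 of 8 genes were lower in asynchronous than in mitotic CCNA-GFP cells (−0.22 for Bax, which had been higher, to −0.80 for Phlda3), where 20.3% of all genes were. In −IAA and +IAA 6 of 8 were lower, where 21.4% and 22.4% of all genes were. Trp53 stayed higher under it in the 3 arms (0.27, 0.35 and 0.25), as were 24.8%, 27.2% and 29.8% of all genes. Without replicate 3 the higher call of Trp53 was lost in −IAA (0.37) and +IAA (0.39), and without replicate 1 the lower call of Ccng1 was lost in both (−0.68 and −0.72). Bax in CCNA-GFP was not called without replicate 2 (0.32) or replicate 3 (0.19), nor Phlda3 in −IAA without replicate 1 (−0.25) or replicate 3 (−0.46), nor Aen in −IAA without any 1 of them (−0.31 to −0.23) or in +IAA without replicate 1 (−0.17). Without replicate 2, Phlda3 (−0.65) and Trp53inp1 (−0.80) were called lower in +IAA, Trp53inp1 (−0.78) and Sesn2 (−0.33) in −IAA and Phlda3 (−0.39) in CCNA-GFP, and without replicate 1 Sesn2 (−0.29) in −IAA.

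Released cells were then set beside asynchronous cells, which were separate cultures sampled without arrest, so the comparison is not with the same cells at an earlier time. At 60 min all 8 genes were higher than in asynchronous cells in CCNA-GFP (67.0% of all genes), −IAA (75.2%) and +IAA (72.2%). Trp53 had the smallest excess, of 0.69 ± 0.15, 0.60 ± 0.15 and 0.65 ± 0.15, and under equal totals it was not called. At 120 min all 8 were still higher in CCNA-GFP, against 63.4% of all genes, and 7 of 8, all but Trp53, in −IAA (51.0%) and +IAA (47.2%).

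Ccng1 and Phlda3 had the widest gap at 120 min. Ccng1 was at 26.2 and 22.7 TPM at 120 min against 6.41, 6.04 and 8.17 TPM in asynchronous CCNA-GFP cells, a ratio of means of 3.56 and a log2 fold change of 1.73 ± 0.13 (limma adjusted p = 1e-08). In CTCF-AID it was at 38.4 and 40.6 TPM against 5.19, 8.08 and 4.43 TPM without IAA (2.54 ± 0.18, limma adjusted p = 1e-10), and at 39.4 and 41.9 TPM against 4.01, 7.92 and 3.84 TPM with IAA (2.75 ± 0.18, limma adjusted p = 3.7e-11). The lowest released library was thus over the highest asynchronous one in the 3 arms, and Ccng1 lay at percentile 99.7 of all genes in CCNA-GFP and 99.9 in −IAA.

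Phlda3 was at 13.1 and 12.2 TPM at 120 min against 2.35, 3.41 and 3.55 TPM in asynchronous CCNA-GFP cells (1.76 ± 0.17, limma adjusted p = 1.2e-07), and at 15.8 and 17.7 TPM against 2.18, 4.17 and 2.43 TPM in −IAA (2.16 ± 0.18, limma adjusted p = 1.1e-09). Its groups did not overlap either. Trp53inp1 was at 25.5 and 22.1 TPM against 8.82, 12.3 and 10.3 TPM in CCNA-GFP (1.12 ± 0.16, limma adjusted p = 1e-05), and at 25.3 and 25.3 TPM against 5.89, 8.91 and 4.04 TPM in −IAA (1.86 ± 0.24, limma adjusted p = 1.2e-06). The asynchronous replicates of Trp53inp1 in CTCF-AID differed by over 2-fold, and replicate 2, the highest, is the one nearest to the released cells.

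The targets Bbc3, Sesn2, Bax and Aen were also above asynchronous cells at 120 min. At 90 min the gap to asynchronous −IAA cells was 2.57 ± 0.18 for Ccng1, 2.19 ± 0.18 for Phlda3, 1.83 ± 0.24 for Trp53inp1 and 0.09 ± 0.15 for Trp53, where the median of all genes was 0.28. For these 4 targets in CCNA-GFP at 120 min it was 1.35 ± 0.18 for Bbc3, 1.19 ± 0.16 for Sesn2, 1.05 ± 0.14 for Bax and 0.89 ± 0.14 for Aen, at percentiles of 98.7, 97.8, 96.3 and 92.8. In −IAA the same 4 genes were at 1.40 ± 0.20, 1.23 ± 0.16, 1.01 ± 0.12 and 1.05 ± 0.11. Equal totals kept all 7 targets higher at 120 min in the 3 arms, from 0.37 (Aen) to 1.27 (Phlda3) in CCNA-GFP and from 0.68 (Bax) to 2.18 (Ccng1) in −IAA, where 26.8% of all genes were higher in CCNA-GFP, 26.9% in −IAA and 26.2% in +IAA. At 60 min that scaling left 6 of 8 called in CCNA-GFP (35.0% of all genes) and 7 of 8 in −IAA (37.5%) and +IAA (36.9%), with Trp53 at −0.0030, −0.14 and −0.06. The 60 and 120 min comparisons share their asynchronous libraries. Without replicate 1, Trp53 in CCNA-GFP was not called at 60 min (0.35) or at 120 min (0.45), while in +IAA it was called at 120 min (0.41).

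**Figure D2:**
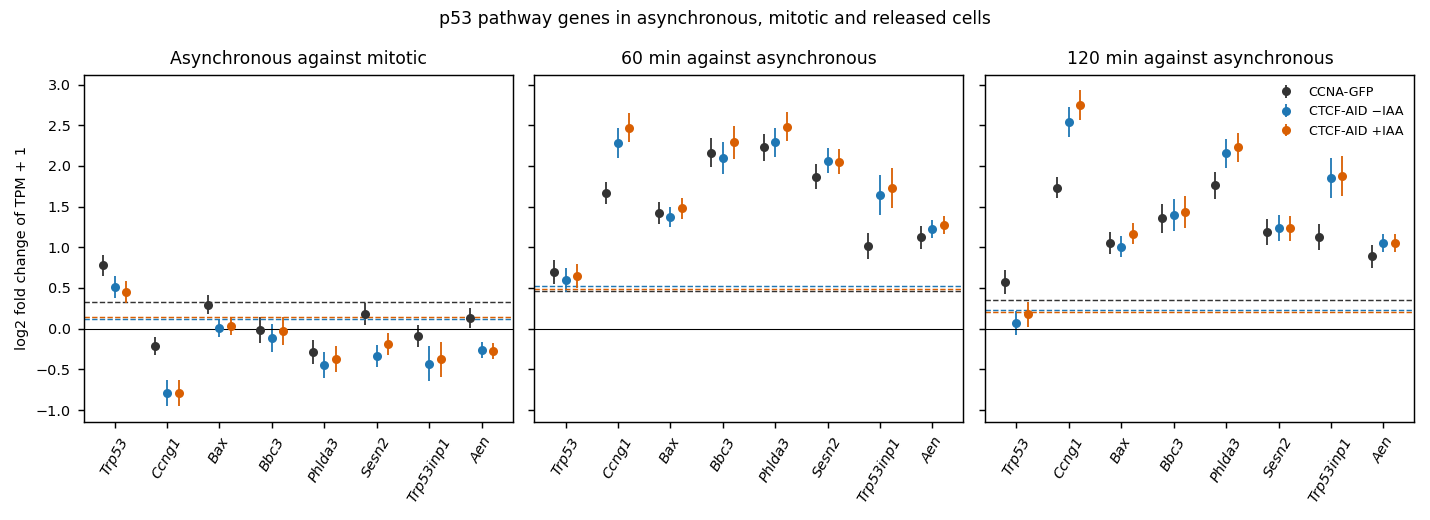
Log2 fold change of TPM + 1 (vertical axis, ± SE from limma) of each gene in the 3 arms, for asynchronous against mitotic, 60 min against asynchronous and 120 min against asynchronous cells. Dashed lines mark the median of all genes in each arm; at 120 min the 7 targets sit at 0.89 or more, over medians of 0.35, 0.23 and 0.20, while Trp53 lies near them.

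**Figure D3:**
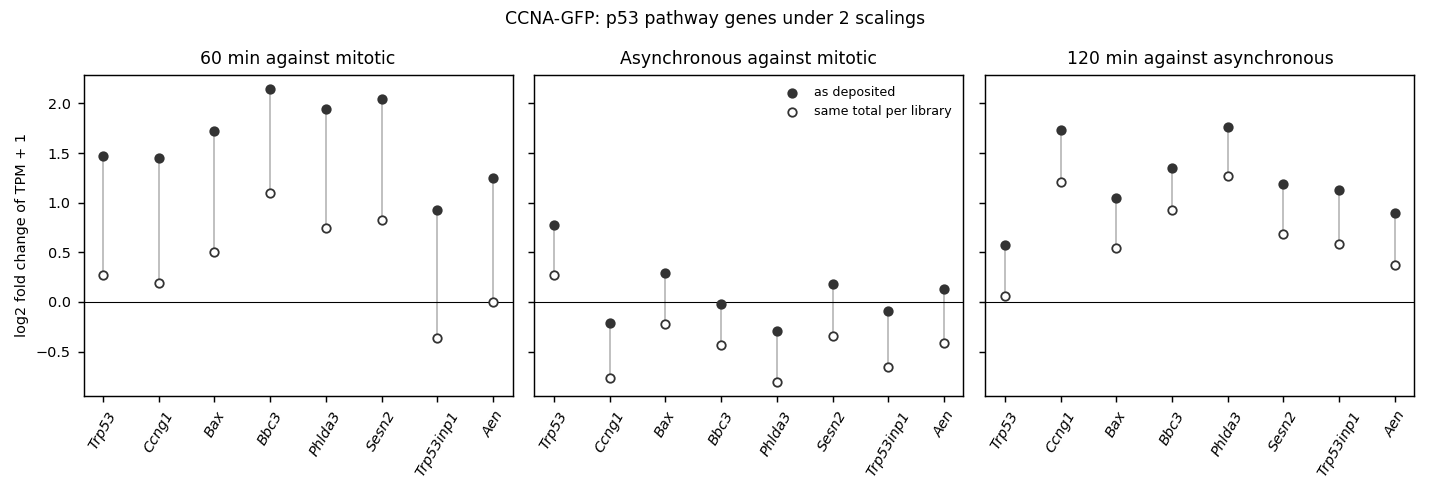
Log2 fold change of TPM + 1 (vertical axis) in CCNA-GFP cells as deposited (filled points) and with the same total TPM in every library (open points). The scaling lowers each value; it turns Trp53inp1 at 60 min against mitotic from 0.92 to −0.36 and leaves Ccng1 at 1.21 and Phlda3 at 1.27 for 120 min against asynchronous.

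A comparison of 120 with 60 min, added after the values were seen, called 4 of 8 lower in CCNA-GFP (28.5% of all genes), 4 of 8 in −IAA (53.1%) and 3 of 8 in +IAA (50.8%), where the medians of all genes were −0.11, −0.27 and −0.25. In the CTCF-AID arms these counts do not set the 8 genes apart from all genes. Neither that difference nor differences between the 8 genes were tested. Bbc3 fell in the 3 arms: in CCNA-GFP from 11 and 10.0 TPM to 4.95 and 6.26 TPM (−0.81 ± 0.19, limma adjusted p = 0.0026), with −0.69 ± 0.21 in −IAA and −0.85 ± 0.21 in +IAA. Sesn2 fell as well, from 25.4 and 17.9 TPM to 13.1 and 12.8 TPM in CCNA-GFP (−0.68 ± 0.17, limma adjusted p = 0.0039) and by 0.83 in −IAA and 0.82 in +IAA. Bax fell in CCNA-GFP (−0.38 ± 0.14) and −IAA (−0.36 ± 0.13), Phlda3 in CCNA-GFP (−0.47 ± 0.18), and Trp53 in −IAA (−0.53 ± 0.16) and +IAA (−0.47 ± 0.16), but under equal totals only Bbc3 in CCNA-GFP (−0.61) and +IAA (−0.51), Bax in CCNA-GFP (−0.19) and Sesn2 in the 3 arms (−0.48, −0.45 and −0.44) were called lower. That scaling called 21.7%, 26.5% and 27.2% of all genes lower and 24.4%, 25.6% and 26.6% higher in CCNA-GFP, −IAA and +IAA.

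Ccng1 and Trp53inp1 were not called in this comparison in any arm. Ccng1 had log2 fold changes of 0.07 ± 0.14 in CCNA-GFP, 0.26 ± 0.20 in −IAA and 0.28 ± 0.20 in +IAA, and Trp53inp1 0.11 ± 0.17, 0.21 ± 0.26 and 0.15 ± 0.26. In −IAA both 120 min libraries of Ccng1 (38.4 and 40.6 TPM) were above both at 60 min (31.1 and 34.9 TPM). Under equal totals Ccng1 was called higher at 120 than at 60 min in the 3 arms (0.25, 0.65 and 0.66), and Aen in −IAA (0.20). In CCNA-GFP, 1 gene was called lower without replicate 1 and 2 without replicate 3, in place of 4, and in +IAA 5 were called lower without replicate 2, in place of 3, while Ccng1 was called higher there (0.38, limma adjusted p = 0.046).

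The +IAA arm asks whether CTCF, a DNA-binding protein that shapes chromatin loops, is needed for these genes to return. IAA acts on the CTCF protein, so RNA levels do not check its loss. The study showed the depletion by Western blot, in interphase and in mitosis. No gene of the 8 was called between the arms by limma, with an adjusted p under 0.1 and an absolute log2 fold change over 0.2, at any stage, and 0 of the 8 had an unadjusted p under 0.05. Of all genes, 0% passed in mitotic cells and in those released for 20 or 40 min, 0.283% in those released for 50 min, 0.225% for 60 min, 0.733% for 90 min, 0.586% for 120 min and 1.01% in asynchronous cells. The test of whether the IAA effect over 20 to 60 min differed from that in asynchronous cells called none of the 8 and 0.0195% of all genes. With the replicate number as a block, none of the 8 was called either, while the share of all genes was 1.01% at 60 min, 2.43% in asynchronous cells and 0.410% for the difference of effects. Neither fit paired the libraries of the 2 arms by stage and replicate, though these deviated together (correlations of 0.578 to 0.871). Both fits may therefore miss small differences, and the lack of calls does not show that CTCF is not needed. The study tested counts and did report genes that responded early after mitosis.

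Phlda3 had the largest difference between the arms in mitotic cells, where it was at 2.96, 3.58 and 3.31 TPM with IAA and 4.63, 4.49 and 3.57 TPM without (−0.29 ± 0.19, or ± 0.16 with the block). Without replicate 1 this difference was −0.17. Phlda3 was lower with IAA in each of the 5 replicate pairs of mitotic and 20 min cells, as were Ccng1, Trp53inp1 and 12.3% of all genes. Bbc3 had the largest difference at 50 min, at 10.6 and 10.3 TPM with IAA and 8.37 and 8.81 TPM without (0.26 ± 0.22, or ± 0.21 with the block), and it was higher with IAA in each of the 4 pairs at 50 and 60 min, as were Aen and 11.7% of all genes. These pair counts were chosen after the values were seen, and none of the differences passed the test.

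**Figure D4:**
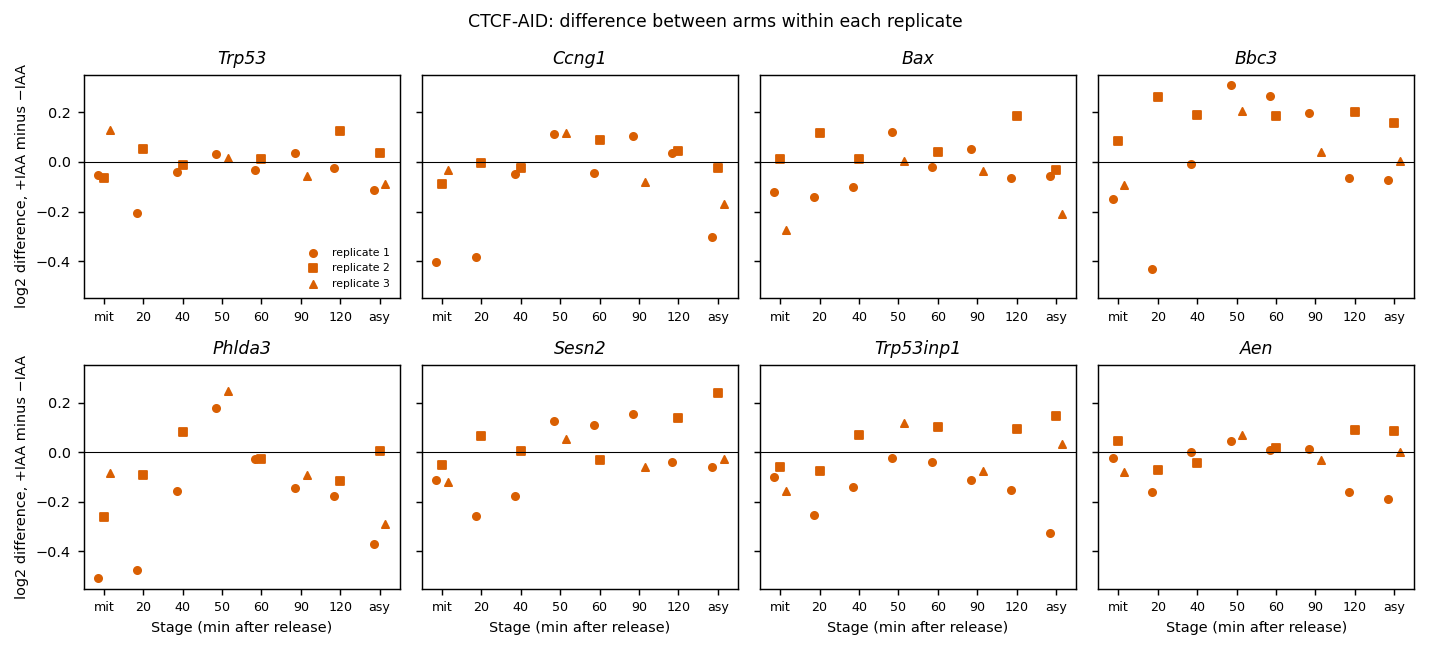
Difference of log2(TPM + 1) between the +IAA and −IAA library of the same replicate (vertical axis) at each stage (horizontal axis) in CTCF-AID cells, with 1 point per replicate pair. The points lie on both sides of 0 and between −0.51 and 0.31, and Phlda3 lies below 0 in all 5 pairs of mitotic and 20 min cells.

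Other genes of the pathway were taken from lists. Of 30 other p53 targets, 26 were listed, and all 26 were higher at 60 min than in mitotic cells in the 3 arms, with a median of 1.34 in CCNA-GFP where that of all genes was 0.79. The median of all genes is lowered by low genes on log2(TPM + 1). Of all genes, 88.3% (CCNA-GFP), 84.8% (−IAA) and 82.2% (+IAA) were higher. On log2(TPM + 1), those with the largest change were Ppm1d, a phosphatase that acts back on p53 (1.93 ± 0.14), Btg1, an antiproliferative protein (1.86 ± 0.16), and Tigar, a phosphatase of sugar metabolism (1.75 ± 0.13). The smallest on that scale, which compresses low genes, were those of Tap1, a peptide transporter (0.71 ± 0.08), the ribonucleotide reductase subunit Rrm2b (0.53 ± 0.08) and the epoxide hydrolase Ephx1 (0.47 ± 0.08). Ppm1d went from 2.13, 1.59 and 2.45 TPM in mitosis to 12.3 and 7.64 TPM at 60 min, a ratio of means of 4.85. Tap1 went from 0.244, 0.133 and 0.197 TPM to 0.951 and 0.955 TPM, a ratio of means of 4.98, so on the linear scale its change was as large, and that of Rrm2b was 2.56. Tap1 and Rrm2b were under 0.5 TPM, the study's limit for keeping a gene, in every asynchronous library of CCNA-GFP and of both CTCF-AID arms. They are thus listed only through their released levels, so their rise is a description and no test. The counts and medians of the 26 targets, here and below, include both genes and are descriptions too. Which of the targets not named here are listed in the same way is not given.

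Against asynchronous cells at 120 min, 23 of the 26 targets were higher in CCNA-GFP (median 0.99, all genes 0.35, 63.4% of all genes higher), 24 in −IAA (median 1.15, all genes 0.23, 51.0% higher) and 23 in +IAA (median 1.15, all genes 0.20, 47.2% higher). None of the 26 was lower, against 5.86%, 7.25% and 8.43% of all genes. With the same total per library, 18, 20 and 20 of them were higher, where 26.8%, 26.9% and 26.2% of all genes were, and 1 was lower in each arm, where 24.9%, 27.7% and 29.2% were. At 60 min against mitotic that scaling left 15, 21 and 21 of the 26 higher, where 36.4%, 39.4% and 40.7% of all genes were.

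Of 24 regulators of p53, 21 were listed. At 60 min against mitotic, 18 were higher in CCNA-GFP (88.3% of all genes), with a median of 0.88, and 17 in −IAA (84.8%) and in +IAA (82.2%), so their share was near that of all genes. Lower were 0, 2 and 2 of them, against 0.515%, 2.70% and 4.04% of all genes. The largest changes in CCNA-GFP were those of the ubiquitin ligase Rchy1 (1.67 ± 0.13), the deacetylase Hdac1 (1.46 ± 0.13) and Trp53bp2, a p53-binding protein (1.40 ± 0.11). The smallest among those called were those of the damage-response protein Trp53bp1 (0.76 ± 0.11), the p53-binding protein Ppp1r13b (0.64 ± 0.09) and Trp73, a relative of p53 (0.34 ± 0.10). At 120 min against asynchronous cells, 15 of the 21 regulators were higher in CCNA-GFP (63.4% of all genes, median of the regulators 0.47), 12 in −IAA (51.0%, median 0.28) and 12 in +IAA (47.2%, median 0.36), again near the share of all genes, and 1, 2 and 2 were lower, against 5.86%, 7.25% and 8.43% of all genes. Trp73 was among the higher ones, at 1.72 and 1.31 TPM against 0.203, 0.253 and 0.320 TPM in CCNA-GFP (1.06 ± 0.10). Each of these asynchronous values was under 0.5 TPM, the study's limit for keeping a gene, and the asynchronous mean of Ppp1r13b was under it too. In CCNA-GFP both genes are thus listed only through their released levels, as is Trp73 in CTCF-AID. The counts and medians of the 21 regulators include them and are descriptions too. The rise of Trp73 and Ppp1r13b to 60 min and the excess of Trp73 at 120 min are therefore descriptions and no test. On equal totals 8 regulators were higher and 8 lower at 60 min against mitotic in CCNA-GFP, where 36.4% and 33.3% of all genes were. In −IAA it was 6 and 8 (39.4% and 31.1% of all genes), and in +IAA 6 and 7 (40.7% and 33.2%). By limma, 0 of the listed regulators and targets were called in any IAA comparison, and at most 1 of either list had an unadjusted p under 0.05.

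The time courses of the genes were compared over 22 points, the log2 change from mitosis of each other stage of the 3 arms, as a description. Ccng1 and Phlda3 followed each other most closely (Pearson's r = 0.979), with Bax and Aen at 0.975, Bax and Sesn2 at 0.973 and Ccng1 and Trp53inp1 at 0.968. Trp53 was the least like the others, with r from 0.418 (Trp53inp1) to 0.742 (Bax). Among 8329 genes, Phlda3 was also the gene most like Ccng1, and the genes most like the rest were Zfp750 (Phlda3), Hbp1 (Sesn2), Slc19a2 (Bbc3), Dnajc9 (Trp53inp1), Tmem43 (Bax), Traf4 (Aen) and Pdap1 (Trp53), with r between 0.975 and 0.989. All points share the same libraries and their totals, and the mitotic libraries enter every point of an arm.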

How the data were processed

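Pre-mRNA levels came from ribo-depleted, stranded, paired-end RNA-seq of both lines. The authors aligned reads with STAR to mm10 and estimated abundances by RSEM, using Gencode vM12 extended by 1 unspliced isoform per gene (tools and build per the submitters' processing notes; tool versions are not given in the sources used here). The values they deposited are named TPM, and their totals differ between stages. In every library they are whole multiples, within 0.05 of a step, of a step that does not depend on gene length, as TPM with 2 decimals times a library factor would be; the methods name no such factor. The steps are not reads, since long genes vary between paired libraries by less than read counts can. Whether the 2 tables, of CCNA-GFP and CTCF-AID, share a scale is not known, so each was tested alone and no test was made between lines. The values hold no depth that could be recovered, so no counting interval is given.

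Levels were analysed as log2(TPM + 1) over all listed genes with limma 3.58.1 in R 4.3.3 (lmFit, eBayes with a trend), with Benjamini-Hochberg adjustment over all genes of a table. Stage comparisons used all libraries of a table and the replicate number as a block, as the study takes fold changes within replicates, with a threshold of 0.05 on the adjusted p. Same-numbered libraries deviated together: the correlation of deviations was over 0.1 in 13 of 13 pairs of groups in CCNA-GFP and in 25 of 26 in CTCF-AID (lowest 0.0499). Libraries of the 2 arms with the same stage and number deviated together most (8 of 8 stages over 0.1, from 0.578 to 0.871). IAA comparisons used no block, as the study names none, with the block as an alternative, an adjusted p under 0.1 and, by stage, an absolute log2 fold change over 0.2. CCNA-GFP at 50 min (1 library) was given no call. The replicates are stated to be independent. The fit of 60 min against mitotic was tested on simulated data. In CCNA-GFP (9911 genes) 9 of 100 genes given a log2 change of 0.5 were called and 71 of 100 given a log2 change of 1. In CTCF-AID −IAA (10237 genes) it was 30 and 87 of 100. The simulation left all other genes unchanged and drew the noise of each library independently. In the real comparison most genes were called, which makes the adjustment milder. These shares therefore do not give the recovery of the real test, and a gene that was not called may still have changed. Figures used Python 3.11.15, pandas 2.3.3 and matplotlib 3.10.9.

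The genes, and the lists of 24 regulators (1 of them entered under 2 names), 30 other targets and cell-type markers, were chosen with earlier results of these data known. Named genes are all listed pathway genes plus, from each list, the 3 called genes with the largest and the 3 with the smallest change from mitotic to 60 min in CCNA-GFP. The comparison of 120 with 60 min, the pair counts and the likeness of time courses, planned for Cdkn1a and Mdm2 and applied to the listed genes, were added after values were seen. Alternatives were pseudocounts of 0.1 and 0.5, a mean of at least 1 TPM, the same total per library, median-of-ratios scaling, a factor read from the steps of low values, limma without the trend, the fit with or without the block, and leaving out each replicate. Cdkn1a and Mdm2 were not analysed here.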

Additional observations from a re-analysis of the deposited data

How the results depend on the processing

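Counts that follow are of the 8 pathway genes. With the same total per library, 5 genes were called higher at 60 min than in mitotic cells in each arm. That scaling gave 1 gene higher and 7 lower in asynchronous than in mitotic CCNA-GFP cells, 6 lower in each CTCF-AID arm, and 1 lower at 120 than at 60 min in −IAA. Median-of-ratios scaling gave the same counts for these, 0 higher in asynchronous +IAA cells, and Trp53inp1 called lower at 60 min than in mitotic CCNA-GFP cells. At 120 against 60 min, where the deposited values gave 0 higher in each arm, the same total gave 1, 2 and 1 higher in CCNA-GFP, −IAA and +IAA, and median of ratios 0, 2 and 2. Both scalings called Trp53 lower at 120 min than in asynchronous −IAA cells. The factor read from steps gave 4 higher in asynchronous CCNA-GFP cells, 1 lower in each CTCF-AID arm, and 2 lower at 120 than at 60 min in CCNA-GFP, as did a pseudocount of 0.1. Of all genes, the step factor called 81.7% higher in asynchronous CCNA-GFP cells, 1.51% and 2.19% lower in −IAA and +IAA, and 13.9% lower at 120 than at 60 min in CCNA-GFP, where the pseudocount of 0.1 called 23.9%. Without the replicate block, asynchronous cells had 1 gene higher in CCNA-GFP, 0 higher and 1 lower in each CTCF-AID arm, and at 120 against 60 min 1 was lower in CCNA-GFP and 2 in −IAA. That fit called 46.7% of all genes higher in asynchronous CCNA-GFP cells, 11.6% higher and 1.24% lower in −IAA, 17.3% higher and 1.75% lower in +IAA, and 12.1% and 33.2% lower at 120 than at 60 min in CCNA-GFP and −IAA. With the block, 0 genes were called in any IAA comparison, as without it.

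Directions also turned. Under the same total and median of ratios in turn, CCNA-GFP values at 60 min against mitotic were −0.36 and −0.38 (Trp53inp1) and −0.0011 and −0.025 (Aen). For asynchronous against mitotic they were −0.22 and −0.24 (Bax), −0.35 and −0.36 (Sesn2) and −0.42 and −0.43 (Aen), and Bax was at −0.15 and −0.18 in −IAA and −0.15 and −0.19 in +IAA. Trp53 at 60 min against asynchronous was at −0.0030 and −0.0069 in CCNA-GFP, −0.14 and −0.18 in −IAA and −0.064 and −0.092 in +IAA. Trp53 at 120 min was at −0.29 and −0.31 in −IAA and −0.16 and −0.16 in +IAA, with −0.27 and −0.11 under the step factor and −0.13 and −0.024 without the block. Aen in −IAA at 60 min was at −0.015 under median of ratios. The step factor turned asynchronous against mitotic to 0.00423 (Ccng1), 0.14 (Bbc3) and 0.14 (Trp53inp1) in CCNA-GFP, 0.00715 (Bbc3) in −IAA, and 0.080 (Bbc3) and 0.011 (Sesn2) in +IAA.

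Leaving out 1 replicate gave 1 to 2 genes higher and 0 to 1 lower in asynchronous than in mitotic CCNA-GFP cells, 0 to 1 higher and 1 to 4 lower in −IAA, and 0 to 1 higher and 0 to 4 lower in +IAA, and 1 to 4, 3 to 4 and 2 to 5 lower at 120 than at 60 min. Of all genes, 47% to 67.8% were then higher and 1.29% to 1.99% lower in asynchronous CCNA-GFP cells, 17.3% to 29.9% and 2.62% to 4.25% in −IAA, 26.9% to 37.5% and 3.19% to 5.38% in +IAA, and 6.37% to 33.4%, 40.4% to 51.7% and 33.4% to 49.2% lower at 120 min. Single genes then ranged, for asynchronous against mitotic, from −0.00065 to 0.19 (Aen), −0.11 to 0.14 (Bbc3), −0.0012 to 0.33 (Sesn2), −0.32 to −0.070 (Ccng1), −0.39 to −0.12 (Phlda3) and −0.35 to 0.13 (Trp53inp1) in CCNA-GFP, and Bax from −0.066 to 0.097 in −IAA and −0.056 to 0.11 in +IAA, where Bbc3 went from −0.21 to 0.057. Trp53 at 120 min against asynchronous went from −0.16 to 0.26 in −IAA and −0.077 to 0.41 in +IAA. The cause of these shifts was not tested. Without replicate 2, 1 gene (Ccng1) was also higher at 120 than at 60 min in +IAA. Leaving out 1 replicate left some released groups with 1 library, assumed to vary like the rest. The steps of the values do not give depth, and 2 libraries per released group limit the precision.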
